A study of Mus musculus with 30 samples.

Results

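The libraries described here are the tumours taken 4 days after a single intravenous injection of mXTX301 and those taken 4 days after vehicle, as their titles and treatment labels give them: 5 libraries against 5, 10 of the 30 in the series, read across all 15482 genes that passed a low-count filter. mXTX301 is a masked interleukin-12 (IL-12) surrogate for mice, given at 0.39 mg/kg. Every animal was a female C57BL/6J mouse, 10 weeks old when 500000 MC38 cells, a mouse colon carcinoma line, were placed under the skin of the right flank, and treatment began at a tumour volume of 200 to 300 mm3. Each group held 5 mice. Used for 2 further comparisons were the 5 day 4 tumours of an unmasked positive control given at 0.03 mg/kg and the day 7 tumours of mXTX301 and vehicle. All tumours come from 1 transplanted cell line, and no fraction of cells was sorted, so each value is a level in the whole piece of tissue.

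IL-12 is made by antigen-presenting cells and binds a receptor of the Il12rb1 and Il12rb2 chains on T cells and natural killer (NK) cells, where it signals through Tyk2, Jak2 and Stat4. Its best-known product is interferon-gamma, which acts on nearly every cell and switches on genes of antigen presentation, cell-autonomous defence and lymphocyte attraction. In a masked cytokine the active part is covered until the cover is cut away.

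Across all tested genes, 32.2% were called: 2505 were higher after mXTX301 (16.2% of those tested) and 2477 were lower (16.0%), by the edgeR quasi-likelihood test at a Benjamini-Hochberg adjusted p under 0.05, which is what a call means below. The rises were larger than the falls. The median rise among the called genes was 1.39-fold and the median fall 1.25-fold. At least 2-fold changes numbered 618 among the higher genes (3.99% of those tested) and 89 among the lower (0.575%), and at least 8-fold changes 35 and 1. All 5 libraries of a group lay beyond all 5 of the other in 1438 genes on the higher side (9.29%) and 1444 on the lower side (9.33%). Total counts ran from 48807725 to 65544314 per library.

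Some libraries stood apart before any comparison. Vehicle replicate 4 and mXTX301 replicate 3 were rich in skin genes, with 101 and 248 CPM (counts-per-million, scaled by TMM) summed over Krt1, Krt5, Krt10 and Krt14, against 0.680 to 2.21 in the other 8. Vehicle replicate 5 was the highest vehicle library for ribosomal proteins and for NK cell and granule genes. In mXTX301 replicates 4 and 5 the skeletal muscle list was low, at a mean log2 CPM of -1.48 and -1.35 against 2.48 to 4.53 in the other 8. The epithelial genes that would mark a colon tumour were near the floor of the table: Epcam reached at most 1.23 CPM in any of the 10 libraries and Vil1 at most 0.418. Counts without the skin-rich pair are given below for the groups with at least 4 called genes whose count they move by over 1.5 times.

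The interferon-gamma gene itself was low in vehicle tumours and higher in every treated one. In vehicle replicates 1 to 5, Ifng stood at 0.237, 0.335, 0.569, 0.0790 and 0.0348 CPM, and in mXTX301 replicates 1 to 5 at 2.47, 3.44, 10.9, 3.46 and 5.59 CPM. This was a rise of 20.6-fold (log2 fold change 4.36 ± 0.56 SE; adjusted p = 3.78e-06). Without the skin-rich pair the log2 fold change of Ifng was 3.65. All 5 treated libraries lay above all 5 vehicle libraries, with replicate 3 the highest.

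Of the 22 tested genes of the IL-12 and IL-18 pathway, 14 were called higher and 2 lower, and their median log2 fold change was 0.84, against 0.01 over all tested genes. Both receptor chain genes rose. Il12rb2 read 0.158, 0.229, 0.294, 0.142 and 0.314 CPM in the vehicle tumours, in order of replicate, and 1.44, 1.43, 4.90, 1.97 and 2.58 CPM in the mXTX301 tumours. It rose 10.8-fold (log2 fold change 3.43 ± 0.45 SE; adjusted p = 4.39e-06). Il12rb1, the chain shared with the IL-23 receptor, stood at 121, 95.4, 124, 118 and 117 CPM in the treated libraries, against 53.7, 48.4, 39.0, 41.0 and 34.3 in vehicle. That was 2.66-fold higher (log2 fold change 1.41 ± 0.12 SE; adjusted p = 5.04e-09), and the groups were well separated for both chains.

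The mXTX301 tumours held 3.22, 3.37, 13.8, 2.92 and 4.76 CPM of Il18r1, in order of replicate, and the vehicle tumours 0.376, 0.290, 0.716, 0.585 and 0.697 CPM. The fitted rise was 10.5-fold (log2 fold change 3.40 ± 0.49 SE; adjusted p = 1.72e-05). Il18r1 encodes a receptor chain for IL-18, a cytokine that acts together with IL-12. Replicate 3 was the highest, and the groups did not overlap. Without that replicate the log2 fold change of Il18r1 was 2.73. Il18bp, the secreted decoy that binds IL-18, was also higher. Its level was 33.2, 33.3, 59.5, 36.7 and 43.5 CPM after mXTX301 and 14.5, 11.3, 15.9, 13.7 and 12.1 CPM after vehicle, 3.05-fold higher (log2 fold change 1.61 ± 0.20 SE; adjusted p = 2.41e-06). Il18 rose 2.37-fold (adjusted p = 0.000976) and the T-helper 1 transcription factor gene Tbx21 5.39-fold (adjusted p = 0.000113). The cytokine's own subunit genes Il12a and Il12b had log2 fold changes of 1.16 and 0.67 and were not called (without the skin-rich pair, that of Il12a was -0.13), and Gadd45b and Gadd45g, stress-inducible genes that IL-12 can raise in T cells, were called lower, at -0.46 and -0.55. Stat4, which carries the IL-12 signal, rose 1.78-fold, but its call is lost in 13 of 18 alternatives (adjusted p 0.023 to 0.462), among them the fit without the skin-rich pair (log2 fold change 0.34, adjusted p = 0.455).

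**Figure D1:**
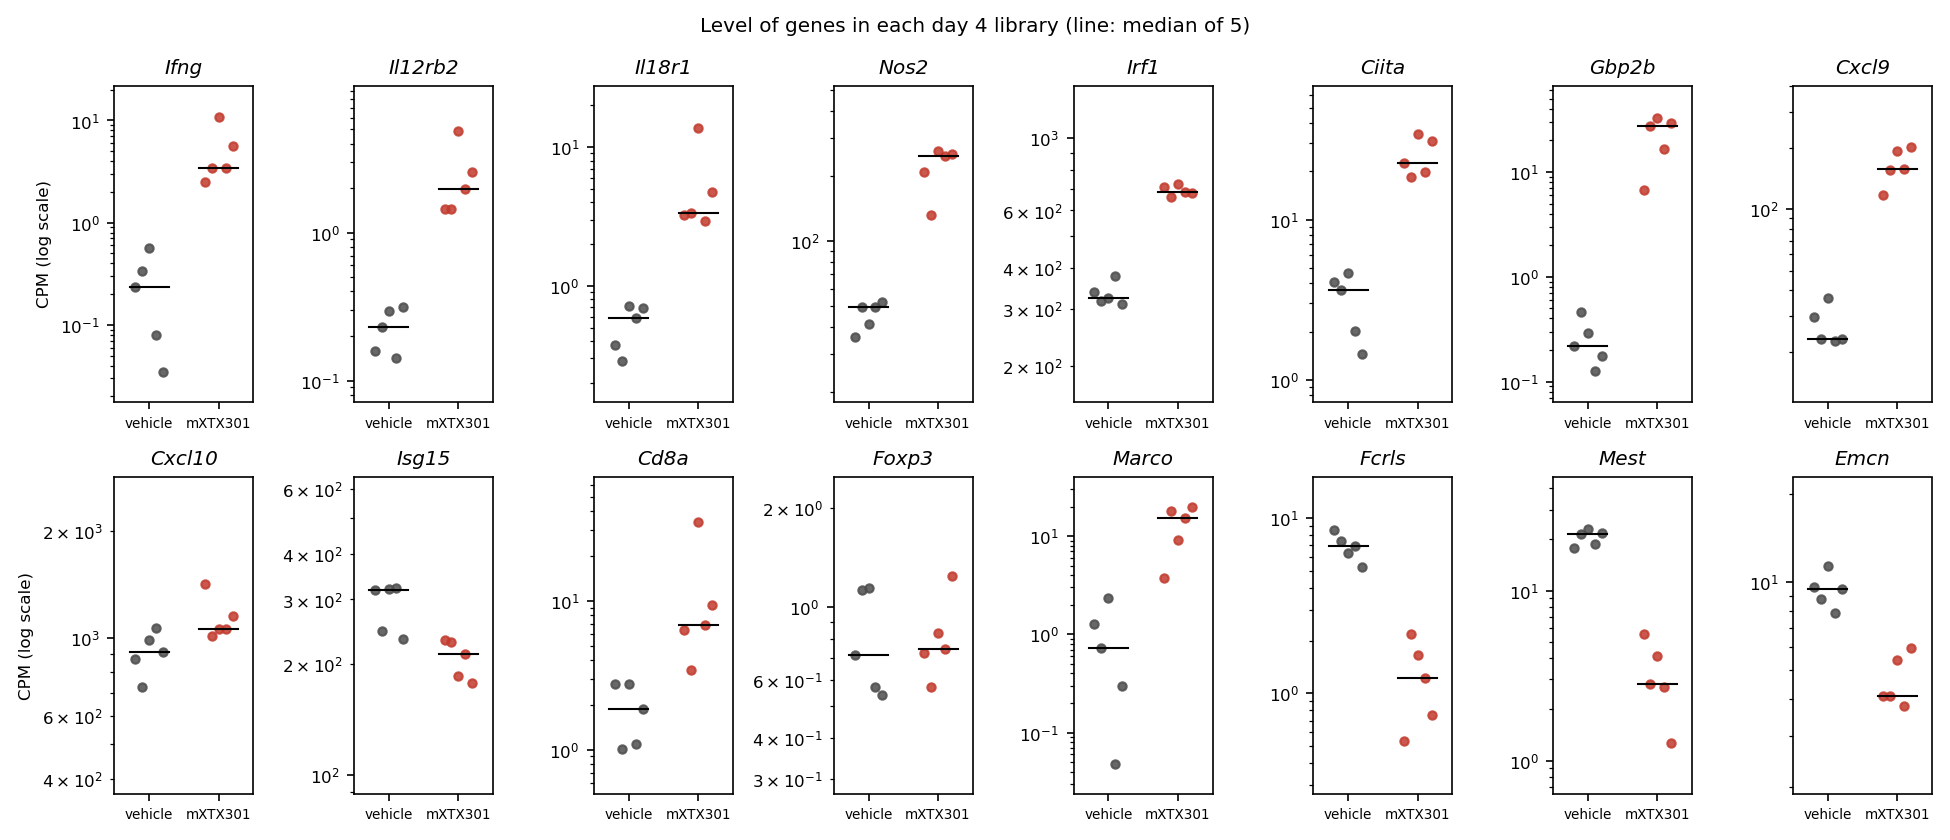
CPM on a log scale for 16 genes, with 1 point per library (grey vehicle, red mXTX301, replicates 1 to 5 from left to right) and a line at the group median. Ifng runs from 2.47 to 10.9 CPM after mXTX301 and from 0.0348 to 0.569 after vehicle, while the groups overlap for Cxcl10 and Foxp3.

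Downstream of interferon-gamma, 17 of 22 tested genes of the receptor and its signal were called higher and 0 lower, with a median log2 fold change of 0.53. The receptor genes Ifngr1 and Ifngr2 were not called (0.11 and 0.07 on the log2 scale). For Irf1 the levels were 337, 317, 324, 377 and 310.3 CPM after vehicle and 708, 661, 721, 685 and 680.3 CPM after mXTX301, replicates 1 to 5. Irf1 rose 2.07-fold (log2 fold change 1.05 ± 0.07 SE; adjusted p = 6.65e-11). Irf1, a transcription factor gene induced by interferon-gamma, varied little within each group, and its treated libraries span 661 to 721 CPM.

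Ciita levels were 22.5, 18.6, 34.1, 19.9 and 31.2 CPM after mXTX301 (replicates 1 to 5), against 4.07, 3.61, 4.64, 2.01 and 1.45 CPM after vehicle. The gene rose 8.01-fold (log2 fold change 3.00 ± 0.28 SE; adjusted p = 2.24e-08). The product of Ciita switches on MHC class II genes, and its groups did not overlap. Nlrc5, the corresponding activator of MHC class I genes, rose 2.08-fold, although vehicle replicate 5 was low at 79.4 CPM against 179.5 to 232 in the other vehicle libraries. Irf8 rose 2.36-fold, Batf2 2.46-fold and the feedback inhibitor genes Socs1 and Socs3 1.68-fold and 1.45-fold. Ptpn2, a phosphatase that dampens this pathway (-0.05), and Irf9, part of the type I interferon complex (0.13), were not called.

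All 11 tested guanylate-binding protein genes and all 8 tested immunity-related GTPase genes were called higher, without overlap of the groups in any of the 19. Both families encode interferon-induced GTPases that attack vacuoles holding intracellular pathogens. The median log2 fold changes were 2.09 for the guanylate-binding proteins and 1.28 for the immunity-related GTPases. Levels of Gbp2b in vehicle replicates 1 to 5 were 0.217, 0.457, 0.294, 0.126 and 0.174 CPM, and in the mXTX301 replicates 6.66, 27.5, 33.1, 16.6 and 29.2 CPM. This was a rise of 87.7-fold (log2 fold change 6.46 ± 0.66 SE; adjusted p = 1.53e-07). Replicate 1 was the lowest treated library for Gbp2b and still lay far above all vehicle libraries.

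Across replicates 1 to 5, Gbp2 reached 985, 792, 1206, 1051 and 1144 CPM with mXTX301 and 243, 224, 279, 307 and 247 CPM with vehicle. It rose 3.99-fold (log2 fold change 1.99 ± 0.13 SE; adjusted p = 6.65e-11). Gbp10 was measured at 12.2, 14.4, 22.4, 17.8 and 22.8 CPM in mXTX301 replicates 1 to 5 and at 1.36, 0.625, 1.29, 1.39 and 0.453 CPM in vehicle replicates 1 to 5. The fitted rise was 17.5-fold (log2 fold change 4.13 ± 0.31 SE; adjusted p = 6.06e-10). Gbp10 and Gbp6 are near copies, as are Tgtp1 and Tgtp2, so reads may be split between the copies and their single values are uncertain. The smallest rise in the 2 families was that of Ifi47, 1.78-fold. The secreted protease inhibitor gene Serpina3f, a neighbour of other near-identical inhibitor genes, stood at 1.05, 0.655, 1.30, 0.616 and 1.25 CPM in vehicle and 11.3, 9.55, 16.6, 11.2 and 15.7 CPM after mXTX301, 13.2-fold higher (log2 fold change 3.73 ± 0.25 SE; adjusted p = 6.65e-11).

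Classical type I interferon-stimulated genes did not follow. Of the 27 tested, 1 was called higher and 5 lower, and the median log2 fold change was -0.16. The shares were 3.70% and 18.5%, against 16.2% and 16.0% of all tested genes, so the falls were near the share over all genes. In vehicle replicates 1 to 5, Isg15 stood at 319, 247, 319.7, 322 and 234 CPM, and in mXTX301 replicates 1 to 5 at 233, 229.7, 185, 213 and 177 CPM. Its log2 fold change was -0.47 ± 0.16 (SE; adjusted p = 0.028), with the lowest vehicle library just above the highest treated one. The Isg15 call is lost without the skin-rich pair or without any single one of vehicle replicates 1, 3 and 4 and mXTX301 replicates 3 and 5 (adjusted p 0.0153 to 0.108 over the alternatives). Oas1a, a sensor of double-stranded RNA, was lower in all 5 treated libraries (100.3 to 118 CPM against 134 to 171), at a log2 fold change of -0.51 (adjusted p = 0.00267). Usp18, Oasl1 and Oas1g were the other called falls. Ifit1 (-0.16), Mx1 (-0.25), Rsad2 (-0.27) and Irf7 (-0.18) were not called, and Herc6 was the called rise, 1.44-fold. Without the skin-rich pair 2 of the falls were called, and without any single one of vehicle replicates 1, 3 and 4 or mXTX301 replicates 3 and 5, 3 were called.

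**Figure D2:**
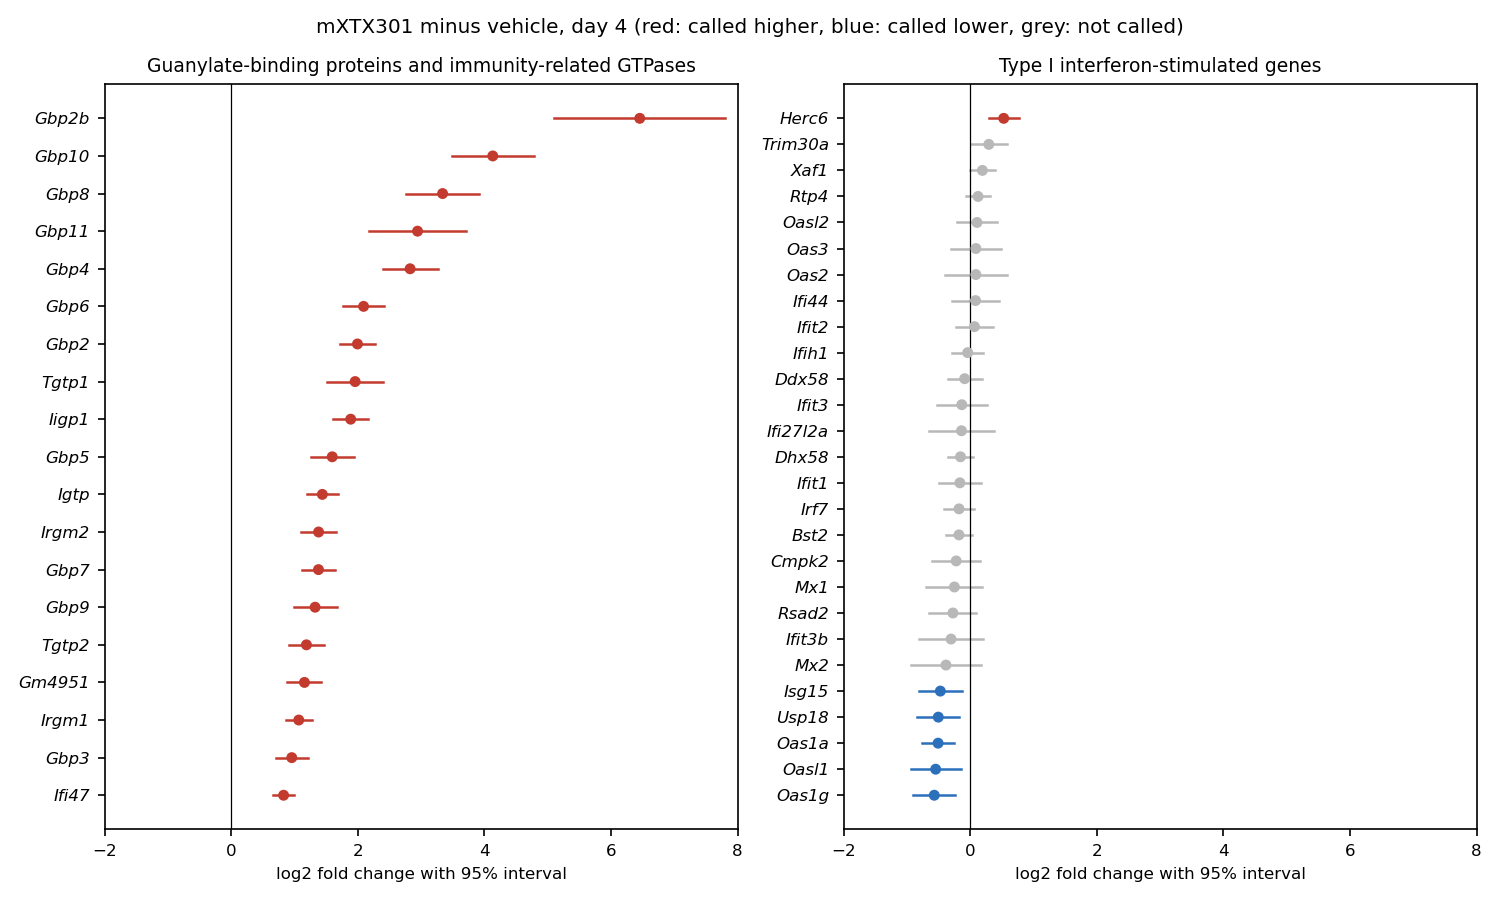
Fitted log2 fold changes (points) with 95% intervals (lines) for the 19 GTPase genes on the left and the 27 type I interferon-stimulated genes on the right, on 1 axis range. All 19 on the left are called higher, whereas 21 of the 27 on the right are not called (grey) and 5 are called lower (blue).

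Promoter sequences of genes from both groups show what letters stand at their starts. Windows of 300 bases, 250 before to 50 after a transcription start, were taken from RefSeq (GRCm38.p6) for 11843 of the 15482 tested genes. They were searched on both strands for the letters of an interferon-gamma-activated site, TTCNNNGAA, and of an interferon-stimulated response element, GAAANNGAAA, bound by factors of the IRF family; matches may share letters. The first was in the windows of 8.41% of all these genes and the second in 3.80%. Capitals below mark the matched letters, and each sequence reads 5′ to 3′ along the gene's strand.
Irf1 (chr11:53769764-53770063, plus strand): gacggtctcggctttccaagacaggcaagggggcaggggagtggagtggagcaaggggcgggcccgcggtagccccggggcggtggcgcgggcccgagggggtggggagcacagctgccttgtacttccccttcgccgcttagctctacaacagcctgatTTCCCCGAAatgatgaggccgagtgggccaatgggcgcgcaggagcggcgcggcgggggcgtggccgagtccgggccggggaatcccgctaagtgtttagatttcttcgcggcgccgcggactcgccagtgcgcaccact
Gbp2b (chr3:142594597-142594896, plus strand): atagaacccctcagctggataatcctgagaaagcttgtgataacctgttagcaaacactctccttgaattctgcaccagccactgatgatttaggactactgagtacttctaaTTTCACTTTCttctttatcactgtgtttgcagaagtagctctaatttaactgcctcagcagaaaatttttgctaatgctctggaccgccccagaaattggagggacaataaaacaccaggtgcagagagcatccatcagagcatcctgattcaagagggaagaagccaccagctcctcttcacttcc
Gbp5 (chr3:142496684-142496983, plus strand): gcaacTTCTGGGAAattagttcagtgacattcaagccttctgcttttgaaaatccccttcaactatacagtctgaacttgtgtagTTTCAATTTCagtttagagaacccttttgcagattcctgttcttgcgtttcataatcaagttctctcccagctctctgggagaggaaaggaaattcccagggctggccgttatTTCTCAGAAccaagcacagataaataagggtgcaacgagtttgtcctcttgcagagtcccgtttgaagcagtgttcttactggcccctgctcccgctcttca
Igtp (chr11:58199306-58199605, plus strand): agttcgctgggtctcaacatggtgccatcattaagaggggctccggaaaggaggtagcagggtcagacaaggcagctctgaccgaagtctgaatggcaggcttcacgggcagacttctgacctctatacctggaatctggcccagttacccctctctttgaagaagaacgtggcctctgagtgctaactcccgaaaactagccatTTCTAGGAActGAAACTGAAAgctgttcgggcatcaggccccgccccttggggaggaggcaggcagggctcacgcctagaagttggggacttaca
Isg15 (chr4:156200769-156201068, minus strand): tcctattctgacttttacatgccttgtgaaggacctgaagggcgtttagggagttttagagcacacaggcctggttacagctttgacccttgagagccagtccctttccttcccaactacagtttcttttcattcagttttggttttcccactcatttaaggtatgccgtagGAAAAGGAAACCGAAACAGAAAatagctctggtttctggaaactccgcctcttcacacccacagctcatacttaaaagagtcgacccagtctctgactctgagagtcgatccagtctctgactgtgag
Oas1a (chr5:120907476-120907775, minus strand): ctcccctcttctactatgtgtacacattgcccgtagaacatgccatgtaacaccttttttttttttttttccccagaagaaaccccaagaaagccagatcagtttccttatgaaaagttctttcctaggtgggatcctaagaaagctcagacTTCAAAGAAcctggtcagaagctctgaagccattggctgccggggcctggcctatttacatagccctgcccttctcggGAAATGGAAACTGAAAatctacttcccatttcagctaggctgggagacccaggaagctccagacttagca

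Irf1, which rose, holds 1 match to the activated-site letters and 0 to the response element, whereas Isg15, which fell, holds 3 overlapping matches to the response element and 0 to the activated site. Gbp5 and Igtp, which rose, hold both, as does Oas1a, which fell. Among genes called higher by at least 2-fold, 15.1% of 458 windows' genes held the activated-site letters and 10.0% the response element. Genes called higher by under 2-fold, 1492 with a window, had shares of 9.05% and 4.56%, nearer to those of all genes. Among genes called lower the shares were 8.10% and 3.42% of 1989 genes, and among genes not called 7.98% and 3.39% of 7904. The response-element letters stood in 5 of 5 guanylate-binding protein genes with a window and in 12 of 20 type I interferon-stimulated genes. The activated-site letters stood in 2 of those 5 and 3 of those 20. A match is a description of letters and not of a bound factor.

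Genes of both MHC pathways of antigen presentation were higher. Of 14 tested MHC class II genes, 8 were called higher and 1, Rfxap, lower (median log2 fold change 0.93). H2-Ab1 read 70.8, 57.6, 69.4, 29.3 and 39.3 CPM in the vehicle tumours, in order of replicate, and 149, 262, 388, 162 and 259.9 CPM in the mXTX301 tumours. H2-Ab1 rose 4.59-fold (log2 fold change 2.20 ± 0.33 SE; adjusted p = 3.08e-05). H2-Ab1 encodes a chain of the class II molecule, and its groups did not overlap. Cd74, the invariant chain, rose 4.93-fold, H2-Aa 4.92-fold and H2-DMa, which loads peptide, 3.52-fold. The B-cell-rich members H2-Ob (0.85) and H2-Oa (0.52) were not called. In bulk tissue, more cells of a type and more RNA per cell cannot be told apart, here and in each group below.

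For MHC class I, 14 of 19 tested genes were called higher and 0 lower, by smaller amounts (median log2 fold change 0.36). The mXTX301 tumours held 719.6, 649, 719, 718 and 693 CPM of Tap1, in order of replicate, and the vehicle tumours 421, 371, 392, 450.1 and 507 CPM. The gene rose 1.63-fold (log2 fold change 0.71 ± 0.07 SE; adjusted p = 1.74e-08). Tap1 carries peptides into the endoplasmic reticulum. Psmb9, an immunoproteasome subunit, rose 1.58-fold and the non-classical gene H2-T23 2.48-fold. The abundant heavy chain gene H2-K1 was at 3655 to 3988 CPM against 2873 to 4288, and its 1.14-fold difference was not called (adjusted p = 0.054). Without vehicle replicate 5, which held the highest H2-K1 level, the log2 fold change was 0.29 and called. B2m, called at 0.29, lost its call in most alternatives.

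Genes of tryptophan, arginine and itaconate metabolism rose beside these: 8 of 13 tested were called higher and 1, Asl, lower (median log2 fold change 1.61). For Nos2 the levels were 35.6, 49.4, 41.1, 49.3 and 52.0 CPM after vehicle and 207, 131, 260.3, 247 and 252 CPM after mXTX301, replicates 1 to 5. This was a rise of 4.82-fold (log2 fold change 2.27 ± 0.21 SE; adjusted p = 2.69e-08). Nos2 makes nitric oxide from arginine. Arg1, which splits the same amino acid, rose 3.06-fold, and Slc7a2, a transporter for it, 4.78-fold. Acod1 levels were 32.5, 40.3, 72.9, 37.1 and 59.9 CPM after mXTX301 (replicates 1 to 5), against 8.86, 7.70, 15.7, 12.3 and 7.51 CPM after vehicle. It rose 4.67-fold (log2 fold change 2.22 ± 0.27 SE; adjusted p = 2.19e-06). Acod1 makes itaconate in activated macrophages.

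Levels of Ido1 in vehicle replicates 1 to 5 were 2.25, 3.14, 4.22, 4.14 and 4.76 CPM, and in the mXTX301 replicates 24.2, 4.23, 13.3, 21.5 and 29.5 CPM. The fitted rise was 5.01-fold (log2 fold change 2.32 ± 0.38 SE; adjusted p = 7.08e-05). Replicate 2 had the lowest treated level of this tryptophan-degrading enzyme and lay within the vehicle range. Among 11 tested phagocyte oxidase and metal withdrawal genes 8 were called higher and 0 lower, Cybb among them (2.61-fold), but 2 without the skin-rich pair, 4 without mXTX301 replicate 3 alone, and 5 without vehicle replicate 1, 2, 4 or 5 or mXTX301 replicate 2 or 5. Pyroptosis and necroptosis genes rose broadly, with 11 of 15 called higher and 0 lower, and 7 without the 12 skin-rich libraries. Pycard, the inflammasome adaptor, rose 2.92-fold and the pore gene Gsdmd 1.54-fold. Of 21 tested apoptosis regulators, 6 were called higher, among them the death receptor gene Fas at 1.89-fold, and 4 lower, among them Bbc3 (-0.55), Bax (-0.35) and Cdkn1a (-0.40). The 6 were 3 without the skin-rich pair and 3 without mXTX301 replicate 3. Over all tested genes 16.2% were called higher and 16.0% lower, so the falls among apoptosis regulators were near the share over all genes.

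T cell genes were higher in treated tumours and very uneven among them. In T cell identity and receptor signalling, 19 of 23 tested genes were called higher and 1, Sit1, lower (median log2 fold change 1.94), and 16 were called higher without the skin-rich pair. The mean log2 CPM of the list was -0.43, -0.56, -0.11, -0.58 and -0.31 in vehicle and 0.60, 0.79, 2.58, 0.94 and 1.23 after mXTX301. Replicate 3, the skin-rich treated tumour, stood far above the other 4, which in turn lay above all vehicle tumours.

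Across replicates 1 to 5, Cd8a reached 6.33, 3.40, 33.7, 6.83 and 9.36 CPM with mXTX301 and 2.77, 1.01, 2.77, 1.09 and 1.88 CPM with vehicle. Cd8a rose 6.30-fold (log2 fold change 2.66 ± 0.53 SE; adjusted p = 0.000565). Cd8a, a chain of the cytotoxic co-receptor, showed the same lead of replicate 3, and without that replicate its log2 fold change was 1.76 (1.61 without the skin-rich pair, adjusted p = 0.0115). Themis was measured at 0.557, 0.478, 3.79, 1.18 and 1.32 CPM in mXTX301 replicates 1 to 5 and at 0.119, 0.137, 0.184, 0.0632 and 0.105 CPM in vehicle replicates 1 to 5. The gene rose 12-fold (log2 fold change 3.58 ± 0.58 SE; adjusted p = 6.28e-05). Themis, a regulator of T-cell receptor signals, had a log2 fold change of 2.84 without replicate 3. Cd3e, a chain of the T-cell receptor complex, rose 5.37-fold and the kinase gene Zap70 4.32-fold. In vehicle replicates 1 to 5, Cd4 stood at 1.09, 1.33, 1.41, 0.759 and 0.749 CPM, and in mXTX301 replicates 1 to 5 at 1.01, 1.75, 1.97, 1.47 and 1.62 CPM. Its 1.47-fold difference was not called (adjusted p = 0.317), with overlapping groups. Cd4 is also carried by some myeloid cells. Foxp3 read 0.712, 1.13, 1.14, 0.569 and 0.540 CPM in the vehicle tumours, in order of replicate, and 0.722, 0.570, 0.834, 0.742 and 1.24 CPM in the mXTX301 tumours. Foxp3, the regulatory T-cell factor, therefore differed by 0.01 ± 0.42 (SE) on the log2 scale (adjusted p = 0.991; 95% interval -0.85 to 0.87), and its sign depends on the library left out.

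Of 11 tested genes of regulatory T cells, 3 were called higher: Il2ra (1.77-fold), Ikzf4 and Tnfrsf1b. Among 10 genes of naive and memory T cells, 3 were called higher, including the IL-7 receptor gene Il7r (3.45-fold), while Tcf7 (-0.11), Lef1 (-0.29) and Klf2 (-0.63) were not called. Among 12 effector T cell genes, 8 were called higher and 1 lower. Cxcr6, a homing receptor of tissue effector cells, rose 9.32-fold and Tox, a factor of chronically stimulated T cells, 3.60-fold. Eomes was not called (0.03).

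NK cell and granule genes moved with the T cell genes, and here 1 vehicle tumour was high as well. In the list of natural killer cells, 14 of 16 tested genes were called higher and 0 lower (median log2 fold change 1.81), and 8 without the skin-rich pair. The list level was -0.69, -0.46, -0.43, -0.56 and 0.39 log2 CPM in vehicle and 0.61, 0.99, 2.43, 0.72 and 0.96 after mXTX301. Vehicle replicate 5 was the highest control and treated replicate 3 the highest of all. The mXTX301 tumours held 3.32, 3.22, 16.5, 3.88 and 4.79 CPM of Klrc1, in order of replicate, and the vehicle tumours 0.514, 0.503, 0.844, 1.14 and 2.86 CPM. This was a rise of 5.42-fold (log2 fold change 2.44 ± 0.52 SE; adjusted p = 0.000936). Klrc1 encodes an inhibitory NK receptor chain, and its log2 fold change was 1.68 without mXTX301 replicate 3 and 3.07 without vehicle replicate 5.

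Cytotoxic granule genes numbered 12 higher and 0 lower of 18 tested (median log2 fold change 1.76). That count was 6 without the skin-rich pair, 8 without mXTX301 replicate 3 alone and 17 without vehicle replicate 5. For Gzmb the levels were 8.01, 9.04, 8.90, 16.2 and 25.8 CPM after vehicle and 19, 20.8, 69.7, 33.0 and 29.3 CPM after mXTX301, replicates 1 to 5. It rose 2.53-fold (log2 fold change 1.34 ± 0.42 SE; adjusted p = 0.0161). Prf1 levels were 11.1, 10.3, 55.3, 21.7 and 16.9 CPM after mXTX301 (replicates 1 to 5), against 2.81, 3.23, 2.61, 6.04 and 14.6 CPM after vehicle. The fitted rise was 3.94-fold (log2 fold change 1.98 ± 0.52 SE; adjusted p = 0.00551). The treated libraries overlapped vehicle replicate 5 for both, and without the skin-rich pair neither was called (Gzmb adjusted p = 0.105, Prf1 adjusted p = 0.0622). The log2 fold change of Prf1 was 1.34 without mXTX301 replicate 3 and 2.64 without vehicle replicate 5. The neighbouring granzymes Gzmd, Gzme and Gzmg share sequence and were not called, at log2 fold changes of 1.76, 1.77 and 2.04. Without vehicle replicate 5 all 3 were called, at 3.29, 2.99 and 4.09. Over the alternatives their lowest log2 fold changes were 0.48, 0.53 and 0.33.

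Ligands and receptors that restrain T cells split by gene. Of the 20 tested checkpoint receptors and ligands, 10 were called higher and 1, Lgals9, lower. Levels of Cd274 in vehicle replicates 1 to 5 were 38.3, 33.0, 47.4, 51.3 and 33.3 CPM, and in the mXTX301 replicates 123, 114, 149, 133 and 155 CPM. Cd274 rose 3.32-fold (log2 fold change 1.73 ± 0.18 SE; adjusted p = 1.93e-07). Cd274 encodes PD-L1, and its level was even within each group. The gene of the other PD-1 ligand, Pdcd1lg2, rose 4.67-fold. Across replicates 1 to 5, Pdcd1 reached 3.71, 3.70, 18.8, 4.50 and 4.93 CPM with mXTX301 and 1.03, 0.792, 0.955, 1.39 and 1.46 CPM with vehicle. The gene rose 6.33-fold (log2 fold change 2.66 ± 0.41 SE; adjusted p = 3.91e-05). Pdcd1, the PD-1 receptor gene, was 3.71 to 4.93 CPM in 4 treated tumours and 18.8 in replicate 3, without which its log2 fold change was 1.89.

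Cd226 was measured at 0.557, 1.23, 2.98, 1.28 and 1.53 CPM in mXTX301 replicates 1 to 5 and at 0.0989, 0.107, 0.0734, 0.0632 and 0.157 CPM in vehicle replicates 1 to 5. This was a rise of 15.0-fold (log2 fold change 3.90 ± 0.54 SE; adjusted p = 9.43e-06). Cd226 and Cd96 (5.92-fold), paired receptors for nectin ligands on T and NK cells, were both higher, whereas Tigit (0.71), which shares those ligands, Ctla4 (0.69) and Lag3 (0.53) were not called. The ligand genes Pvr (0.08) and Nectin2 (-0.05) were not called. The ectoenzyme gene Entpd1 rose 2.98-fold. Of 16 tested co-stimulatory receptors and ligands 10 were called higher, 4 without the skin-rich pair and 5 without mXTX301 replicate 3. Of 10 common gamma-chain cytokines and receptors, 8 were called higher, 4 without that pair or without mXTX301 replicate 3 alone, and 5 without vehicle replicate 5. Il2rb (3.04-fold) and Il15ra (1.92-fold) were among the 8.

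Chemokines that attract T cells did not move as a block. In vehicle replicates 1 to 5, Cxcl9 stood at 29.7, 23.1, 36.7, 22.5 and 23 CPM, and in mXTX301 replicates 1 to 5 at 118, 156, 193, 157 and 201 CPM. It rose 6.11-fold (log2 fold change 2.61 ± 0.24 SE; adjusted p = 1.91e-08). Its groups did not overlap. Cxcl10 read 871, 724, 985, 1068 and 913 CPM in the vehicle tumours, in order of replicate, and 1418, 1013, 1056, 1056 and 1152 CPM in the mXTX301 tumours. The 1.25-fold difference was not called (adjusted p = 0.131), and treated replicates 2, 3 and 4 lay below vehicle replicate 4, although both chemokines are ligands of Cxcr3. Cxcl11, the other Cxcr3 ligand, had a log2 fold change of 0.20 and Ccl5 of 0.37, neither called. Cxcl10 is called without the 12 skin-rich libraries of the series (0.41, adjusted p = 0.0303) and Ccl5 without mXTX301 replicate 5 (0.48, adjusted p = 0.0398). The list of T cell-attracting chemokines held 4 called rises of 11 (Cxcl9, Cxcl16, Xcl1 and Cx3cl1), and 1 without the skin-rich pair, and 2 without vehicle replicate 4, mXTX301 replicate 2 or mXTX301 replicate 3. Of 14 monocyte and other myeloid chemokines, Ccl11 (3.23-fold) and Ccl7 (1.57-fold) were called higher, and Ccl2 (0.16) and Cxcl1 (0.18) were not. The share called higher in that list, 14.3%, was near the 16.2% of all tested genes. Lta and Ltb, the lymphotoxin genes, rose 3.04-fold and 2.95-fold.

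Myeloid genes rose more modestly. The mXTX301 tumours held 74.4, 112, 193, 76.7 and 107 CPM of Ptprc, in order of replicate, and the vehicle tumours 41.3, 39.1, 51.8, 46.6 and 34.5 CPM. The fitted rise was 2.64-fold (log2 fold change 1.40 ± 0.26 SE; adjusted p = 0.000315). Ptprc encodes CD45, carried by all leukocytes, and of 16 pan-leukocyte genes 13 were called higher and 0 lower, 7 without the skin-rich pair and 8 without mXTX301 replicate 3. For Adgre1 the levels were 31.9, 29.7, 35.7, 33.6 and 34.5 CPM after vehicle and 40.5, 86.0, 115, 57.1 and 77.0 CPM after mXTX301, replicates 1 to 5. Adgre1 rose 2.27-fold (log2 fold change 1.18 ± 0.31 SE; adjusted p = 0.00505). Adgre1 is the F4/80 macrophage marker. Of 18 macrophage core genes 12 were called higher (median log2 fold change 0.78), but 5 without the skin-rich pair and 5 without mXTX301 replicate 3 alone. Trem2 (0.20), Apoe (0.08) and Mertk (0.35) were not called.

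Among macrophage subtype genes, Marco rose and Fcrls fell. Marco levels were 3.75, 18.1, 9.14, 15.3 and 19.7 CPM after mXTX301 (replicates 1 to 5), against 1.29, 0.731, 2.37, 0.0474 and 0.296 CPM after vehicle. The gene rose 14.1-fold (log2 fold change 3.82 ± 1.11 SE; adjusted p = 0.0105). Marco, a scavenger receptor, varied widely among the vehicle tumours themselves, with replicate 4 the lowest, and had a log2 fold change of 4.50 without vehicle replicate 3. Levels of Fcrls in vehicle replicates 1 to 5 were 8.46, 7.39, 6.26, 6.91 and 5.26 CPM, and in the mXTX301 replicates 0.536, 2.19, 1.65, 1.23 and 0.749 CPM. Fcrls, a gene of resident macrophages and microglia, fell by 2.43 ± 0.52 (SE) on the log2 scale (adjusted p = 0.000936), with every treated tumour below every vehicle tumour. In the list of resident and alternatively activated macrophages, 4 of 20 were called higher (Marco, Timd4, Chil3 and Stab1) and 1 lower, shares of 20.0% and 5.00% against 16.2% and 16.0% of all tested genes. The call of Timd4 is lost in 10 of 18 alternatives. Mrc1 (0.77), Folr2 (0.90), Lyve1 (0.25) and Retnla (-0.96) were not called.

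Among neutrophils' genes 5 of 14 were called higher, led by Acod1, Mmp8 (4.35-fold) and Clec4e (3.75-fold), while S100a8 at a log2 fold change of 1.51 was not called (adjusted p = 0.0549). In the list of monocytes 8 of 16 were called higher, among them Ly6i (4.82-fold) and Ly6a (2.38-fold), and 1 lower. The fall was that of Cd177 (log2 fold change -1.98), a gene better known from neutrophils, so it is no measure of monocytes. Which cells carried the genes that rose in this list was not tested either. The call of Cd177 is lost in 2 of 18 alternatives, and the called rise of Ly6c2 in 12.

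Genes of cross-presenting dendritic cells were low and higher after mXTX301. Across replicates 1 to 5, Clec9a reached 0.577, 0.938, 1.45, 0.371 and 0.749 CPM with mXTX301 and 0.0593, 0.0762, 0.129, 0.111 and 0.0348 CPM with vehicle. This was a rise of 9.75-fold (log2 fold change 3.29 ± 0.53 SE; adjusted p = 5.72e-05). Clec9a marks cross-presenting dendritic cells, as does Xcr1 (7.31-fold). The list of conventional dendritic cells had 8 of 15 called higher, but 2 without the skin-rich pair, 2 without mXTX301 replicate 3 alone, and 5 without vehicle replicate 1 or 4 or mXTX301 replicate 5. Flt3 (-1.06) and Cd209a (-1.62) were not called. Of 11 genes of migratory dendritic cells 2 were called higher and 1, Fscn1, lower. Those shares were 18.2% and 9.09%, against 16.2% and 16.0% of all tested genes. Of 7 genes of plasmacytoid dendritic cells 3 were called higher (Pacsin1, Cox6a2 and Runx2) and 1 lower, and 1 was called higher without vehicle replicate 2, mXTX301 replicate 4 or mXTX301 replicate 5. The fall was that of Siglech, a surface receptor gene of these cells, which was 0.0169 to 0.11 CPM after mXTX301 and 0.126 to 0.716 after vehicle (log2 fold change -2.66; adjusted p = 0.0075).

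Complement genes were called higher in 11 of 18 and lower in 0 (median log2 fold change 1.08), 5 without the skin-rich pair and 7 without mXTX301 replicate 3. C3 was measured at 67.5, 229.7, 237, 189 and 229.7 CPM in mXTX301 replicates 1 to 5 and at 57.9, 63.7, 75.8, 26.0 and 28.5 CPM in vehicle replicates 1 to 5. It rose 3.78-fold (log2 fold change 1.92 ± 0.52 SE; adjusted p = 0.00617). Treated replicate 1 stayed within the vehicle range for C3, the central component, while the other 4 lay above it. C1s1, a protease of the classical pathway, rose 3.98-fold and Serping1, its inhibitor, 2.99-fold without overlap. Of 6 Fc gamma receptors 4 were called higher, 2 without the skin-rich pair or without mXTX301 replicate 3, with Fcgr4 at 3.10-fold. In vehicle replicates 1 to 5, Psap stood at 851, 808, 832, 782 and 1143 CPM, and in mXTX301 replicates 1 to 5 at 1189, 1457, 2193, 1523 and 1712 CPM. The fitted rise was 1.83-fold (log2 fold change 0.87 ± 0.20 SE; adjusted p = 0.00206). Psap, a lysosomal activator protein gene, was among the largest rises in CPM, and 6 of 18 lysosome genes were called higher, 3 without the skin-rich pair.

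Among cytokines, Il1a (3.80-fold), Tnf (2.17-fold), Il1rn (2.11-fold) and Csf1 (1.29-fold) were called higher and Tgfb1 lower (-0.24), 4 and 1 of 16 tested. Il6 was lower in every treated tumour (0.268 to 0.575 against 0.662 to 1.71 CPM) without a call (adjusted p = 0.0726). The 9 tested B and plasma cell genes gave 1 rise and 2 falls, and 12 mast cell, basophil and eosinophil genes 1 rise, Kit, and 1 fall, Hdc. These were 11.1% and 22.2% of the B and plasma cell list, and 8.33% each way of the other. Of all tested genes 16.2% were called higher and 16.0% lower.

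**Figure D3:**
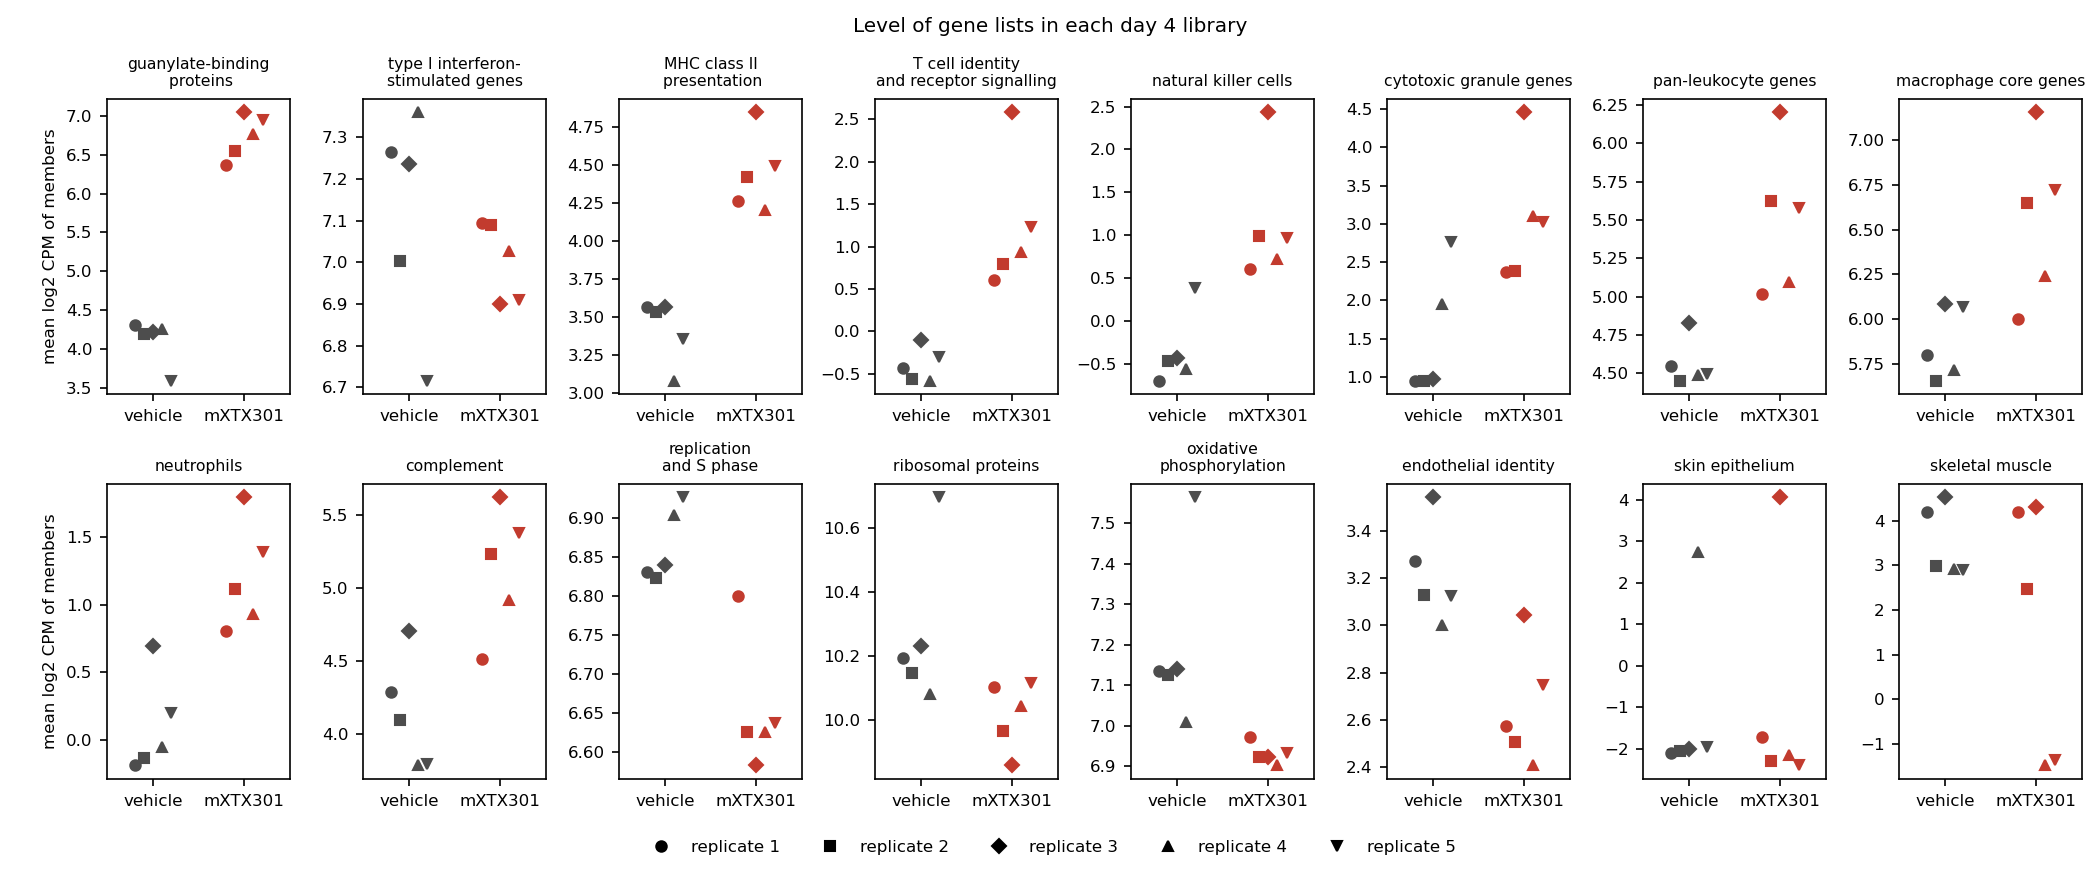
Mean log2 CPM of the tested members of 16 gene lists, with 1 symbol per library (shape gives the replicate; grey vehicle, red mXTX301; each panel has its own axis). mXTX301 replicate 3 (diamond) is highest for T cell, NK, granule, macrophage and skin genes, and vehicle replicate 5 (downward triangle) is highest for ribosomal proteins and oxidative phosphorylation.

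Most genes of DNA replication that were tested fell, by small amounts. Of 30 tested genes of replication and S phase 19 were called lower and 0 higher (median log2 fold change -0.23, range -0.51 to 0.13), and 12 without the 12 skin-rich libraries of the series. The list level was 6.83, 6.82, 6.84, 6.90 and 6.93 log2 CPM in vehicle and 6.80, 6.63, 6.58, 6.63 and 6.64 after mXTX301, so the highest treated library, replicate 1, lay just under the lowest vehicle one. Tyms read 60.6, 60.5, 57.3, 56.7 and 65.2 CPM in the vehicle tumours, in order of replicate, and 46.8, 44.0, 42.6, 40.1 and 40.0 CPM in the mXTX301 tumours. Tyms, which makes thymidylate, fell by 0.49 ± 0.09 (SE) on the log2 scale (adjusted p = 0.000312). Mitosis genes gave 13 falls of 28 and 0 rises (median -0.16; 6 falls without the 12 skin-rich libraries), Cdk1 among them (-0.39). The mXTX301 tumours held 505, 463, 471, 476 and 428 CPM of Mki67, in order of replicate, and the vehicle tumours 444, 466, 419.7, 496 and 239 CPM. The proliferation marker Mki67 was not called (0.18, adjusted p = 0.285), with vehicle replicate 5 the lowest of the 10.

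Several housekeeping groups also stood lower. Of 28 ribosomal proteins 17 were called lower and 0 higher (median -0.26), 7 without vehicle replicate 5, 8 without the 12 skin-rich libraries, 9 with the compared groups alone and 11 without mXTX301 replicate 2 or 3. The level of ribosomal proteins was 10.19, 10.15, 10.23, 10.08 and 10.70 log2 CPM in vehicle and 10.10, 9.97, 9.86, 10.04 and 10.11 after mXTX301. Oxidative phosphorylation gave 18 falls of 25 (median -0.29; 12 without vehicle replicate 5 and 10 with the compared groups alone), led by Ndufa4 (-0.64). Cholesterol and fatty acid synthesis gave 14 of 25 (median -0.34; 9 without vehicle replicate 5 and 8 without the 12 skin-rich libraries), with Mvd (-0.56) among them. Ribosome biogenesis and MYC gave 8 of 22, 3 without the 12 skin-rich libraries, and Myc itself was not called (-0.07). Glycolysis and hypoxia did not stand apart from all genes: 2 of 23 were called higher and 4 lower (17.4% against 16.0%), Ddit4 most (-0.95), and 2 lower without the skin-rich pair, vehicle replicate 5, mXTX301 replicate 3 or mXTX301 replicate 5.

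Calls moved with gene length, a comparison added after the values were seen. By the longest GENCODE transcript, 15278 genes were split into 4 classes of equal size. The shortest class (55 to 2066 bases) had 6.96% called higher and 30.7% lower, and the longest class (4682 bases or more) 31.8% higher and 3.77% lower. Median log2 fold changes were -0.18 and 0.18. The order was the same without vehicle replicate 5 (22.7% lower in the shortest and 25.4% higher in the longest class). Of the ribosomal proteins 24 of 28 and of oxidative phosphorylation 16 of 25 lay in the shortest class and 0 in the longest, whereas replication and S phase had 4 and 7 of 30 and cholesterol and fatty acid synthesis 1 and 8 of 25. Of T cell identity and receptor signalling 8 and 4 of 23 lay there. The part of length in these results was not tested.

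**Figure D4:**
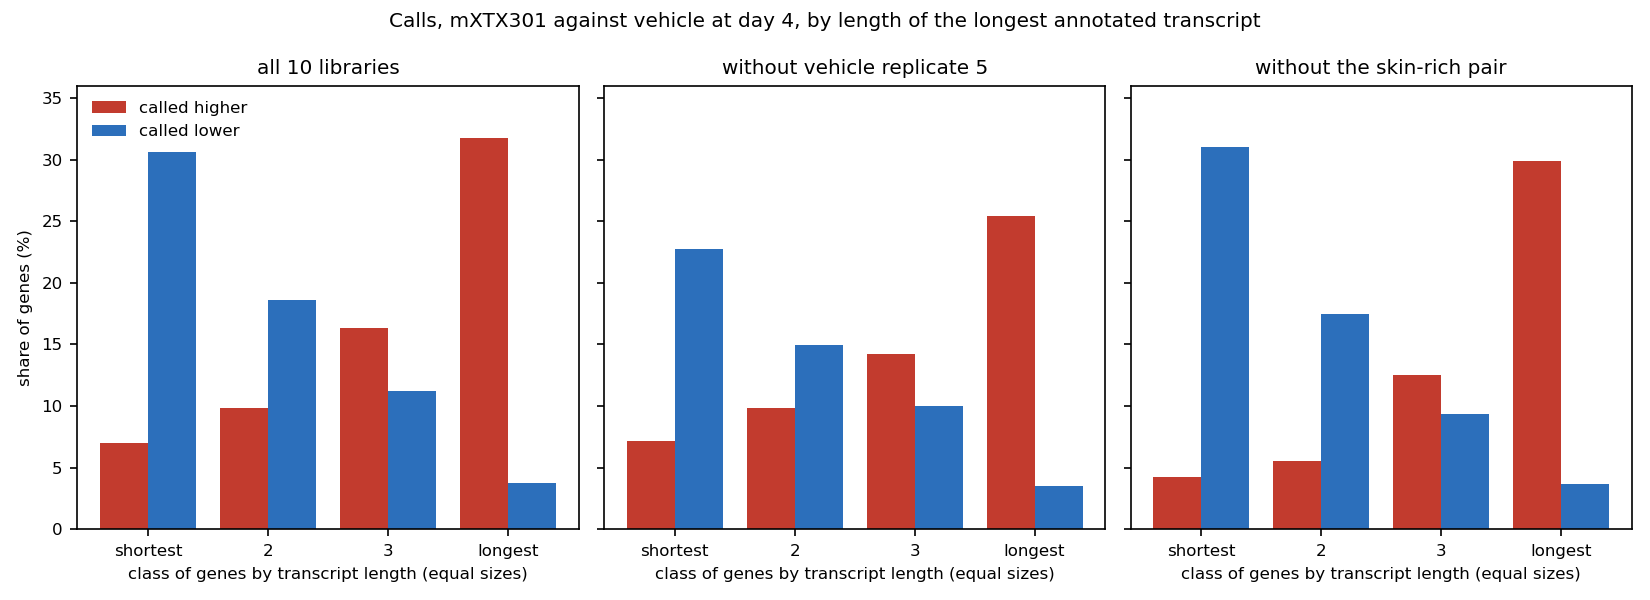
Share of genes called higher (red) and lower (blue) in each of 4 equal classes of genes by length of the longest annotated transcript, for all 10 libraries, without vehicle replicate 5 and without the skin-rich pair. In all 3 panels the share called lower is largest in the shortest class and the share called higher is largest in the longest class.

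Some small RNAs that lack a usual poly(A) tail were lower. The set was chosen after the values of Rpph1, Rmrp and Mir6236 were seen, so it gives no result on the class. For Rpph1 the levels were 5.12, 4.02, 5.05, 2.72 and 4.60 CPM after vehicle and 1.86, 0.975, 1.87, 1.28 and 1.66 CPM after mXTX301, replicates 1 to 5. Rpph1, the RNA of ribonuclease P, fell by 1.49 ± 0.27 (SE) on the log2 scale (adjusted p = 0.000198). Rmrp, the RNA of a related ribonuclease, fell by 1.37 and Mir6236 by 1.26. Terc, the telomerase RNA, was not called (-0.37). Lars2 levels were 557, 369.5, 558, 404 and 615 CPM after mXTX301 (replicates 1 to 5), against 1260.2, 1024, 1075, 687 and 1109.5 CPM after vehicle. Lars2, annotated as the gene of the mitochondrial leucyl-tRNA synthetase, fell by 1.04 ± 0.16 (SE; adjusted p = 4.72e-05), with vehicle replicate 4 the lowest control. Lars2 is not a small RNA, and whether its reads come from its own messenger was not tested. Their part in the other results was not tested.

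Blood-vessel genes were lower after mXTX301. Of 22 tested genes of endothelial identity 10 were called lower and 0 higher (median log2 fold change -0.58; 7 to 12 lower with any 1 library left out). The list level was 3.27, 3.13, 3.54, 3.00 and 3.13 log2 CPM in vehicle and 2.57, 2.51, 3.04, 2.41 and 2.75 after mXTX301, with treated replicate 3 just above vehicle replicate 4. Levels of Emcn in vehicle replicates 1 to 5 were 9.59, 8.78, 11.4, 7.87 and 9.51 CPM, and in the mXTX301 replicates 4.08, 4.08, 5.43, 3.80 and 5.94 CPM. Emcn, a surface protein of capillaries and veins, fell by 1.01 ± 0.25 (SE) on the log2 scale (adjusted p = 0.00323). Sox17 (-1.16) and Sox18 (-1.12), transcription factors of the endothelium, were called lower. Pecam1 (-0.25), Cdh5 (-0.45), Eng (0.13) and Vwf (0.28) were not.

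Across replicates 1 to 5, Aplnr reached 1.55, 1.73, 3.79, 0.860 and 3.22 CPM with mXTX301 and 8.07, 7.22, 12.6, 5.56 and 3.99 CPM with vehicle. Aplnr, the apelin receptor of sprouting vessels, fell by 1.74 ± 0.48 (SE) on the log2 scale (adjusted p = 0.00702). Of 16 angiogenic endothelium and VEGF genes 4 were called lower (Aplnr, Kdr, Dll4 and Unc5b) and 1, Nrp2, higher, and Vegfa was not called (0.17). Over all tested genes 16.0% were called lower and 16.2% higher. The call of Kdr is lost in 5 of 18 alternatives and that of Dll4 in 1. Icam1 was measured at 17.9, 35.5, 48.8, 23.3 and 32.5 CPM in mXTX301 replicates 1 to 5 and at 15.4, 11.3, 14.7, 11.7 and 11.4 CPM in vehicle replicates 1 to 5. Icam1 rose 2.45-fold (log2 fold change 1.30 ± 0.28 SE; adjusted p = 0.00102). Icam1, which leukocytes use to attach, was the called gene of 6 for endothelial adhesion, and Vcam1 (0.35) and Sele (0.01) were not called. The share called higher in that list was 16.7%, against 16.2% of all tested genes. Of 22 fibroblasts and collagen genes 0 were called by edgeR, with Col1a1 at 0.23 ± 0.37 (SE), and 17 of these 22 lay in the longest class by length.

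Steep falls of single genes are given next. Whether these genes share cells with the vessel or muscle genes above was not tested. In vehicle replicates 1 to 5, Mest stood at 17.9, 21.7, 23.1, 18.9 and 21.7 CPM, and in mXTX301 replicates 1 to 5 at 5.53, 2.81, 4.11, 2.72 and 1.27 CPM. Mest, an imprinted gene of the hydrolase family (chromosome 6, 30733506 to 30748466, GRCm38.p6, plus strand), fell by 2.65 ± 0.31 (SE) on the log2 scale (adjusted p = 9.56e-07). Of the 17 tested imprinted genes Mest was the called fall and Igf2r the called rise (1.52-fold), and Copg2, the neighbour of Mest, was not called (0.09). Each way that was 5.88% of the list, under the 16.0% and 16.2% of all tested genes called lower and higher. Kcne3 read 3.46, 3.82, 4.02, 3.68 and 4.29 CPM in the vehicle tumours, in order of replicate, and 0.825, 1.21, 0.819, 0.844 and 1.12 CPM in the mXTX301 tumours. Kcne3, a potassium channel subunit gene, fell by 2.00 ± 0.40 (SE; adjusted p = 0.000533). Nrep fell by 1.53, Cdh15 by 1.45, S100a3 by 1.42, Mmp15 by 1.41 and Pcdh12 by 1.28. The largest rises and falls were picked among genes without overlap, so their lack of overlap is no result. By CPM the largest falls were in abundant, short genes, among them Rplp0, Rps2, Ptma and Lgals1 (-0.66). Of the metalloproteinases and inhibitors, Mmp12 (2.83-fold), Mmp8, Mmp19 and Timp3 were called higher and Timp1 (-0.45) and Plau lower.

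**Figure D5:**
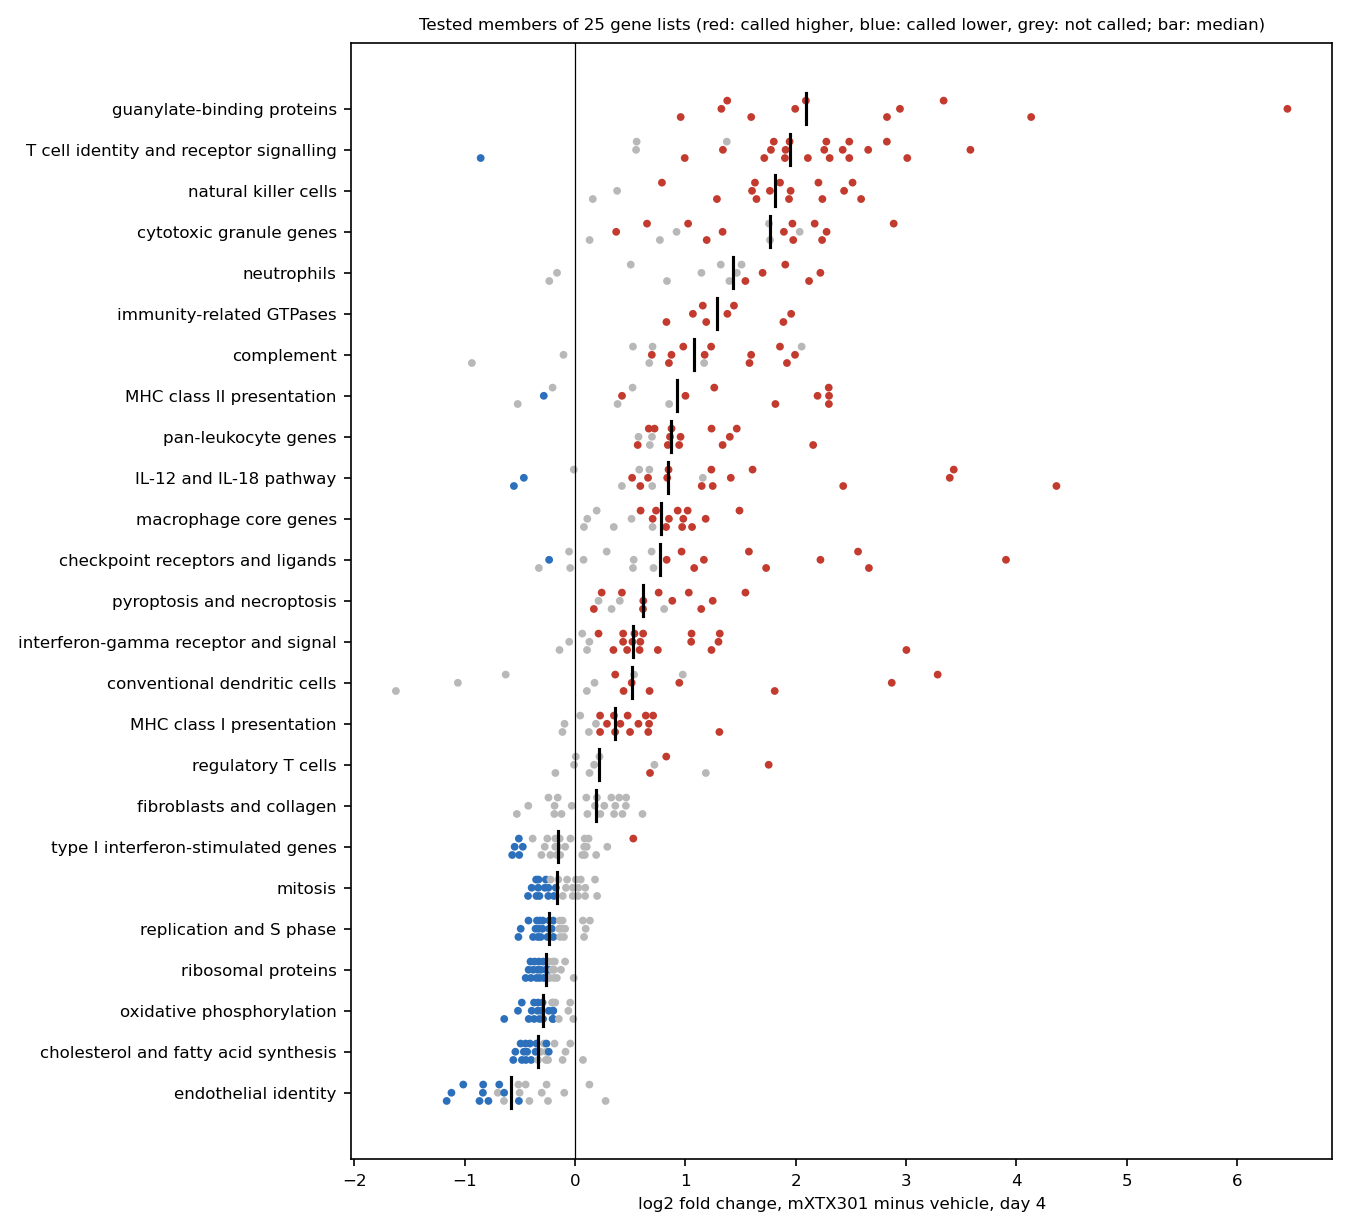
Fitted log2 fold change of each tested member (points) of 25 gene lists, ordered by the median (black bar), with calls in colour. Guanylate-binding proteins are at the top with a median of 2.09 and endothelial identity at the bottom with -0.58, and the members of T cell and NK lists spread over a wider range than those of the ribosomal proteins.

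Against the unmasked control at the same day, 0 genes were called (0% of 15482) by edgeR, with 982 higher and 1110 lower at an unadjusted p under 0.05; DESeq2 called 12 higher and 12 lower, and edgeR fitted to the compared groups alone 89 and 105. The doses differed, 0.39 against 0.03 mg/kg. Ifng averaged 5.17 ± 3.39 CPM after mXTX301 and 5.48 ± 2.15 after the unmasked control (SD, n = 5), a log2 difference of -0.08 (95% interval -1.03 to 0.86; adjusted p = 0.949). Irf1 differed by -0.11 (95% interval -0.26 to 0.03; adjusted p = 0.464). Among the genes described above, Aplnr had a difference of 2.02 (95% interval 0.98 to 3.05; adjusted p = 0.251), which passed by DESeq2 (adjusted p = 0.033) and with the compared groups alone (adjusted p = 0.0453), with a mean of 0.555 ± 0.189 CPM after the unmasked control. A p above the threshold does not show that the drugs act alike.

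The difference between mXTX301 and vehicle was larger at day 7 in 302 genes and smaller, or more negative, in 470 (1.95% and 3.04% of those tested, 4.99% together). H2-Ab1 averaged 244 ± 96.2 against 53.3 ± 18.4 CPM at day 4 and 715 ± 213 against 36.5 ± 9.67 at day 7 (mXTX301 against vehicle, SD, n = 5), a change of 2.09 ± 0.45 (SE) in log2 fold change (adjusted p = 0.0156). Clec4d, Il1b and Fabp4 were among the largest gains, at 2.24, 2.29 and 2.23 on the log2 scale. Cd4 averaged 1.56 ± 0.361 against 1.07 ± 0.310 CPM at day 4 and 4.05 ± 1.46 against 0.655 ± 0.303 at day 7 (mXTX301 against vehicle, SD, n = 5), a change of 2.07 ± 0.57 (SE) in log2 fold change (adjusted p = 0.0382). For Ifng (0.67, adjusted p = 0.585), Gbp2b (0.51, 0.746) and Irf1 (0.20, 0.215) the change of the difference was not called. Lcor (-1.13), Cilp (-2.10), Pcdhb16 (-1.45), Hap1 (-1.12) and Slc39a10 (-1.06) were among the largest changes in the other direction. Of 13 called changes, those of Il12rb1, Psap and Lars2 included, the ones of H2-Ab1, Il1b, Lcor and Slc39a10 kept the call with any 1 library left out, and the other 9, Cd4 among them, did not. The count rests on single libraries: without mXTX301 day 7 replicate 4 it was 48 and 157, and without mXTX301 day 4 replicate 1 it was 59 and 161.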

How the data were processed

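RNA of whole MC38 tumours was extracted with a NucleoSpin kit and its poly(A) RNA sequenced after TruSeq preparation, per the labels' protocols. The authors deposited whole-number counts for 24557 entries in 30 libraries, and a TMM-normalised log2 table of 14877 genes. The deposited log2 values matched log2 CPM recomputed from the counts (prior count 2) within 5e-05 (tolerance 1e-04) and entered no test. The submitters' processing notes name the build mm10 and the tools STAR 2.7.10a, HTSeq 0.11.1, FastQC 0.11.9, edgeR 3.34.0, R 4.1.0 and cutadapt. The role of each tool, the annotation and the strand setting are not given in the sources used here, so overlapping and antisense genes cannot be told apart.

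Of symbols listed more than once the first entry was kept and the later ones (5 entries) were dropped. This left 24552 genes, of which filterByExpr kept 15482. Counts were fitted with edgeR 4.0.16 (R 4.3.3, limma 3.58.1): TMM scaling, robust quasi-likelihood dispersions and 6 group means over 30 libraries, with 24 residual degrees of freedom and a biological coefficient of variation of 27.3%. Comparisons were contrasts of group means with Benjamini-Hochberg adjustment over all tested genes. CPM uses TMM-scaled totals, and a list level is the mean log2 CPM of its tested members. No value column was left unused (0). Replicates are different mice, and the least different pair of libraries of a group differed by a chi-square per degree of freedom of 11.1.

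Genes were named as the 12 largest rises and falls in log2 fold change and the 8 largest in CPM among called genes of at least 1 CPM without overlap, up to 4 members of each list by p, members a list's description needs, a panel, and the 6 largest changes each way of the other comparisons. Members and lists were chosen with earlier results of these data known. A library was called skin-rich where summed CPM of Krt1, Krt5, Krt10 and Krt14 exceeded 10 times the median of all 30 (12 libraries). Alternatives were RLE scaling, no filter, the compared groups alone, DESeq2 1.42.0, a replicate block, a skin covariate, removal of the 12 skin-rich libraries and of each library in turn. Removal of the compared groups' skin-rich pair, the length classes and the set of RNAs without a poly(A) tail were added after seeing the data. Transcript lengths are from GENCODE and promoters from RefSeq (GRCm38.p6). A few genes that these rules name are not reported here. Depth was 48807725 to 65544314 counts per library in the compared groups.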

Additional observations from a re-analysis of the deposited data

Results flagged for a closer look

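In 45 genes and 16 gene lists the 5 libraries of each group were checked for 1 library lying far from the other 4. It did so in 21 of 122 groups. Chance gives about 5% of groups if values are normally distributed, which was not checked and which CPM need not be. The groups are not independent, since the same libraries recur.

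mXTX301 replicate 3 lay far above the other treated tumours for lymphocyte genes. It held 13.8 CPM of Il18r1 (next library 4.76), 18.8 of Pdcd1 (4.93), 3.79 of Themis (1.32), 33.7 of Cd8a (9.36), 69.7 of Gzmb (33.0), 55.3 of Prf1 (21.7) and 16.5 of Klrc1 (4.79). The level of natural killer cells there was 2.43 log2 CPM (0.99 in the next library) and that of skin epithelium 4.06 (-1.72). The skin level of vehicle replicate 4 was 2.73 log2 CPM, against -1.96 in the next vehicle library.

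Vehicle replicate 5 stood apart in several directions. Prf1 was 14.6 CPM there (next library 6.04), Klrc1 2.86 (1.14) and Psap 1143 (851). Its level of natural killer cells was 0.39 log2 CPM (-0.43), of ribosomal proteins 10.70 (10.23) and of oxidative phosphorylation 7.56 (7.14), whereas guanylate-binding proteins were lower there, at 3.59 (4.19).

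Other single libraries stood apart once or on 1 list. mXTX301 replicate 1 was low for C3 at 67.5 CPM (next library 189) and high for replication and S phase at 6.80 log2 CPM (6.64). mXTX301 replicate 2 was low for Il12rb1 at 95.4 CPM (117). In vehicle replicate 3 the level of pan-leukocyte genes was 4.83 log2 CPM (4.55).

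For 5 genes whose levels are given above, the effect of mXTX301 differed between day 7 and day 4 by the test of that difference (edgeR, adjusted p under 0.05). The log2 fold change was larger at day 7 by 0.65 ± 0.17 (SE) for Il12rb1 (adjusted p = 0.029), by 2.07 ± 0.57 for Cd4 (0.0382), by 2.09 ± 0.45 for H2-Ab1 (0.0156) and by 1.00 ± 0.29 for Psap (0.0428). For Lars2 it was 0.86 ± 0.23 higher at day 7 (0.0343), so its fall was smaller. Leaving out 1 library of either day ended the call of 4 of the 5, H2-Ab1 excepted.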

How the results depend on the processing

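The 2505 higher and 2477 lower genes of mXTX301 against vehicle stayed within 1.5 times in every alternative, between 1786 and 2664 higher and between 1744 and 2666 lower, or 1994 to 2450 and 1972 to 2725 with 1 library left out. Against the unmasked control, counts were 0 except 89 higher and 105 lower with the compared groups alone and 12 and 12 by DESeq2. The day 7 change (302 larger and 470 smaller) was 162 larger without a filter, 176 with the compared groups alone, 613 by DESeq2, 577 without the 12 skin-rich libraries and 594 without the skin-rich pair (chosen after seeing the data). The smaller side was 879 by DESeq2 and 799 without the pair. With 1 library left out the larger side ran from 48 to 437 and the smaller from 146 to 803. The larger side fell below 1.5 times without vehicle day 4 replicates 1 or 3, vehicle day 7 replicates 1, 2 or 4, mXTX301 day 4 replicates 1, 2 or 4, or mXTX301 day 7 replicates 4 or 5. The smaller side left that range without vehicle day 4 replicate 1, vehicle day 7 replicates 3, 4 or 5, mXTX301 day 4 replicates 1 or 4, or mXTX301 day 7 replicates 4 or 5. The cause was not tested.

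Of 219 genes named for day 4, 162 were called, and over 18 alternatives 127 of them kept the call, 35 lost it at least once and 0 changed direction. For 9 the loss came only with skin-rich libraries removed (Cx3cl1, Dll4, Il1a, Kit, Prf1, Socs3, Stab1, Tox and Usp18). The others were B2m, Ccl7, Cd177, Cox6a2, Csf1, Cxcl16, Cxcr3, Gadd45g, Gzmb, Hdc, Il2ra, Isg15, Kdr, Lgals9, Ly6c2, Ncr1, Oasl1, Plau, Rfxap, Runx2, Sit1, Stat4, Tgfb1, Timd4, Timp1 and Xcl1. Of the 57 genes not called, 17 were called in at least 1 alternative (Ccl5, Cdh5, Cxcl10, Flt3, Gzmd, Gzme, Gzmg, H2-K1, H2-Oa, Il6, Irf9, Klf2, Lag3, Mertk, S100a8, Tigit and Vcam1). Direction changed in 14 genes that were not called. Without the 12 skin-rich libraries and without the pair, respectively, log2 fold changes were -0.11 and -0.12 for Foxp3, -0.11 and -0.19 for Krt14, -0.48 and -0.49 for Apoe, -0.0057 and -0.023 for Ccl2, -0.078 and -0.090 for Ifngr1, -0.0083 and -0.023 for Ifngr2, -0.11 and -0.13 for Il12a, -0.40 and -0.41 for Sele and -0.12 and -0.13 for Trem2. Without a filter Foxp3 was -0.00081 and Sele -0.0013, and with a skin covariate Krt5 was -0.40. With 1 library left out the ranges were -0.20 to 0.15 for Foxp3, -0.52 to 0.033 for Esm1, -6.51 to 9.55 for Krt5, -5.11 to 6.43 for Krt14, -0.39 to 0.25 for Apoe, -0.023 to 0.29 for Ccl2, -0.050 to 0.097 for Eomes, -0.053 to 0.18 for Ifngr1, -0.13 to 0.0013 for Myc, -0.097 to 0.019 for Nectin2, -0.28 to 0.42 for Sele and -0.0048 to 0.30 for Trem2. For Ifng against the unmasked control it was -0.56 to 0.15.

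The replicate numbers are shared between groups. Over the 2000 most variable genes, deviations of same-numbered libraries correlated at -0.0173 on average (-0.267 to 0.294) and other pairs at 0.0125. Of 5 libraries, 0 correlated best with their own number. The skin-rich libraries, mXTX301 replicate 3 and vehicle replicate 4, correlated at 0.61. The part of tissue content in these correlations was not tested, so the check cannot exclude a pairing. With a replicate block 2492 genes were higher and 2373 lower, Krt5 was -0.77, Apoe -0.018 and Sele -0.028. Genes under about 1 CPM, such as Siglech and Clec9a, rest on few counts.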
